A study of Mus musculus with 4 samples.

Results

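Semaphorins and their receptors, the plexins and neuropilins, were followed through RNA sequencing of mouse cortical neurons depleted of DcpS, a decapping scavenger that breaks down the short capped fragments which 3′-to-5′ mRNA decay leaves behind. Members were the 31 genes of the 32681 in the deposited table whose symbol names a semaphorin of classes 3 to 7 (20 genes), a plexin (9 genes) or a neuropilin (2 genes). The 4 libraries came from primary neuron cultures of CD-1 mouse neocortex at embryonic day 13, a wild-type outbred strain. Of these cultures 2 received control shRNA and 2 received DcpS shRNA. Both treated titles name the same hairpin, shDcPS-2, so effects of DcpS loss and other effects of that hairpin cannot be told apart. No genotype other than wild type is present, all cultures grew in the same B27-supplemented medium, and the labels do not give the age of the culture at harvest, the hairpin sequence, or whether cultures came from separate litters. P-values therefore measure only the spread between these cultures, which may be technical.

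Semaphorins are secreted or membrane-bound guidance cues that steer axons, dendrites and migrating neurons, and plexins are the receptors that carry the signal into the cell through a GTPase-activating domain acting on Ras and Rap proteins. Most class 3 semaphorins, which are secreted, bind a neuropilin that holds an A-type plexin, whereas Sema3e binds plexin D1 directly and classes 4 to 7, mostly anchored in the membrane, bind plexins without a neuropilin. In the developing cortex these pairs are known for orienting pyramidal neurons, for repelling or attracting callosal and corticofugal axons, and for shaping blood vessels.

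Recovered reads numbered 17754768 to 21793685 per library. Values below are normalised read counts, meaning reads divided by the size factor of their library, unless they are called RPKM, meaning reads scaled by annotated exon length and by the library's read total, on which levels of different genes were compared. Dcps itself read 499.8 and 506.6 for control shRNA against 114.5 and 119.6 for DcpS shRNA, lower in both treated libraries. Projection-neuron markers were abundant (summed level 98003 to 99236 in controls, 94369 to 95521 with DcpS shRNA; 2 of 10 markers higher and 0 lower). Fibroblast markers were also present and fell: the 6 listed genes summed to 11103 to 12200 in controls and 6538 to 6742 with DcpS shRNA, and 6 of 6 were lower. Of 8 endothelial markers, summing to 108 to 153 in controls and 89.0 to 95 with DcpS shRNA, 3 passed the read filter and 1 (Kdr) was lower, and Cldn5, Tek and Tie1 were at 0 in at least 1 library. In such bulk RNA, fewer cells of a type and less RNA per cell cannot be told apart.

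Promoter windows are shown for members that changed, of which 4 fell and 1 rose. They run from 250 bases before to 50 after the RefSeq start (GRCm38.p6), are written along the gene's strand, and have the Sp1-type GC box (GGGCGG or its reverse complement CCGCCC) in capitals. Plxnd1, the member that rose, has the window chr6:115994956-115995255 on the minus strand. The windows of 3 members that fell follow it: Nrp1 at chr8:128358823-128359122, Sema3c at chr5:17574566-17574865 and Sema5a at chr15:32244563-32244862, all on the plus strand.
Plxnd1: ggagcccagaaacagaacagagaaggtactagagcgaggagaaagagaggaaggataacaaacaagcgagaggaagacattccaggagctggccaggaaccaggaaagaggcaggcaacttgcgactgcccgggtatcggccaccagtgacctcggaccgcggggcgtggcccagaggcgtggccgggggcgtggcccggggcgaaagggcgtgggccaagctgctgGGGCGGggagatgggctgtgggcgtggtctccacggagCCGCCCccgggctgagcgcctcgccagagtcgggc
Nrp1: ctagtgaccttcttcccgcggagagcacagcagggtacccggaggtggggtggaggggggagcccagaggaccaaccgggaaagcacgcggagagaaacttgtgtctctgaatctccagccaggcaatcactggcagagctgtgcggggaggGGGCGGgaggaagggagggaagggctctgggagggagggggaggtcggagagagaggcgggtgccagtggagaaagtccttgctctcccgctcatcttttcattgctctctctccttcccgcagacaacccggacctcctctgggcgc
Sema3c: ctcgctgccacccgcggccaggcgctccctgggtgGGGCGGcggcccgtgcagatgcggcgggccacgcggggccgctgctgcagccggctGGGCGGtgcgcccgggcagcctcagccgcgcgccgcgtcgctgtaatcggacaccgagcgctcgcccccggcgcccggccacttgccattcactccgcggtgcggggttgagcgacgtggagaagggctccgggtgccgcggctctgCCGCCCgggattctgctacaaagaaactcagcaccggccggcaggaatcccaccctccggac
Sema5a: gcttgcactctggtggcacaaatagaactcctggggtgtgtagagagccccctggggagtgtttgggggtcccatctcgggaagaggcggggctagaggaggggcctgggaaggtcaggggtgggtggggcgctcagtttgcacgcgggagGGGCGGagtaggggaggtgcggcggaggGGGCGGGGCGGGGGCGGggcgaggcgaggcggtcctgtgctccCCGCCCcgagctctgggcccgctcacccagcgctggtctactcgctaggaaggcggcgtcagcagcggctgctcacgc
These windows hold 2, 1, 3 and 5 GC boxes, some of them overlapping in Sema5a, and 23, 14, 42 and 23 CpG dinucleotides in the order printed. The RefSeq table matched 26 of the 31 members with 37 windows. A GC box lay in 27 of those 37 windows and in 35.7% of all 32851 windows, and the TATA box TATAAA, searched on both strands, in 0 of 37 and in 13.6% of all. The 4 windows printed are those of the member that rose and of 3 of the 4 that fell. Each held the GC box and none the TATA box. Plxna4, the other that fell, was not scanned. Member windows had a median of 15 CpG dinucleotides and all windows 7, so the 2 sets differ in base content. Any part of these sequences in the changes was not tested.

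Levels were first ranked per length. Plxna2, an A-type plexin and receptor of Sema6a, was highest at 44.2 ± 4.50 RPKM (SD over the 4 libraries), above 93.3% of tested genes. Sema7a, a membrane-anchored semaphorin that acts through plexin C1 and integrins, followed at 34.0 ± 0.801 RPKM and Plxnb2, receptor of class 4 semaphorins, at 33.0 ± 0.987 RPKM; Sema7a and Plxnb2 overlapped each other, and both lay below Plxna2 in every library. Plxna3 (29.6 ± 1.01 RPKM) and Sema4c (22.5 ± 1.75 RPKM) came next. Plxna4, Sema6d, Plxnb1 and Plxna1 stood between 19.2 and 19.9 RPKM on average, and each overlapped its neighbour in that order. Sema3c, at 15.2 ± 1.43 RPKM, was the most abundant secreted member, ahead of Sema3f (4.98 ± 0.0973) and Sema3a (2.73 ± 0.132), the founding repulsive ligand of the family. Nrp1 (11.9 ± 1.45 RPKM), Plxnd1 (11.8 ± 3.46 RPKM) and Sema5b (11.7 ± 0.942 RPKM) had nearly equal means over the 4 libraries, but not within a group. Plxnd1, at 8.59 and 9.05 RPKM in the controls, lay below both others there, and at 14.9 and 14.7 RPKM with DcpS shRNA it lay above both. At the foot of the order, Sema3b, Sema3d, Sema3e and Sema3g averaged 0.190 to 0.304 RPKM, and Plxnb3 read 0.908 to 5.13 normalised counts per library, near the 3 reads that a count of 0 allows.

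**Figure D1:**
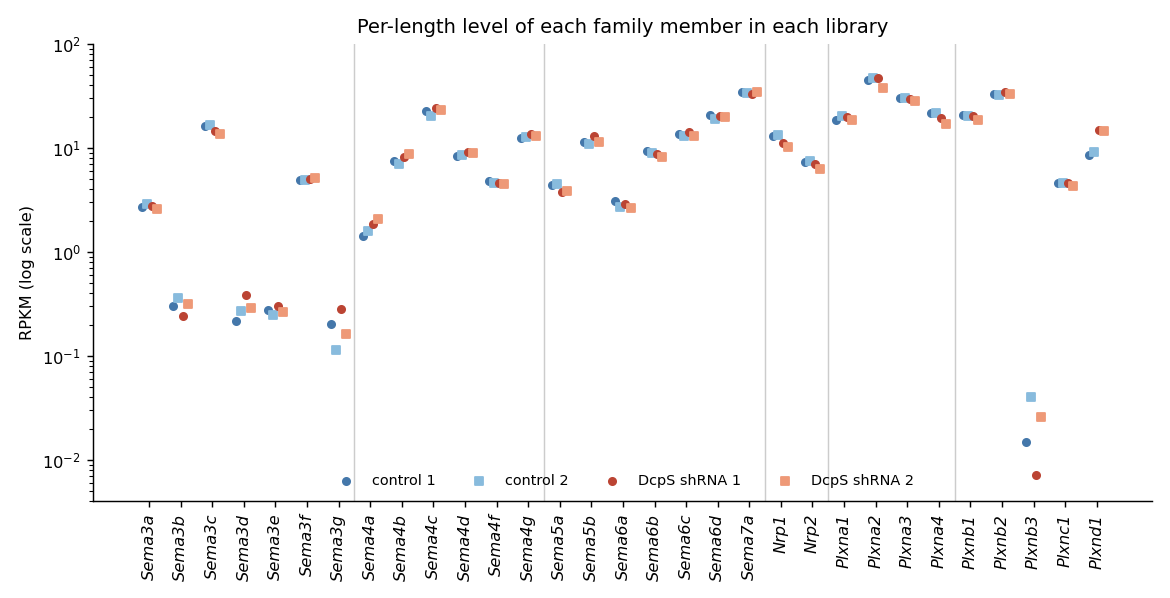
RPKM on a log axis for each of the 31 members in each library (circles and squares: replicates 1 and 2; blue: control shRNA, red: DcpS shRNA), grouped by class. Most members sit between 1 and 50 RPKM, with Sema3b, Sema3d, Sema3e, Sema3g and Plxnb3 well below; the red points of Plxnd1 stand clear above the blue ones.

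The treated and control cultures were compared to ask which of these guidance genes differ with DcpS shRNA. Of the 31 members 30 passed the read filter, the exception being Plxnb3, and 5 changed: Plxnd1 rose, and Nrp1, Plxna4, Sema3c and Sema5a fell (limma, Benjamini-Hochberg adjusted p under 0.05). Over all 18110 tested genes 5.79% were called, 3.65% lower and 2.14% higher. The members' median log2 fold change was -0.01, beside 0.00 over all tested genes, with 14 members above and 16 below 0. DESeq2, which called 3.17% of the 14247 genes it gave an adjusted p, called 3 of the members: Plxnd1, Nrp1 and Plxna4. Both treated libraries lay above both controls for 10 of the 30 members and below them for 8, where 48.4% of all tested genes did not overlap, so that non-overlap by itself sets few genes apart here.

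**Figure D2:**
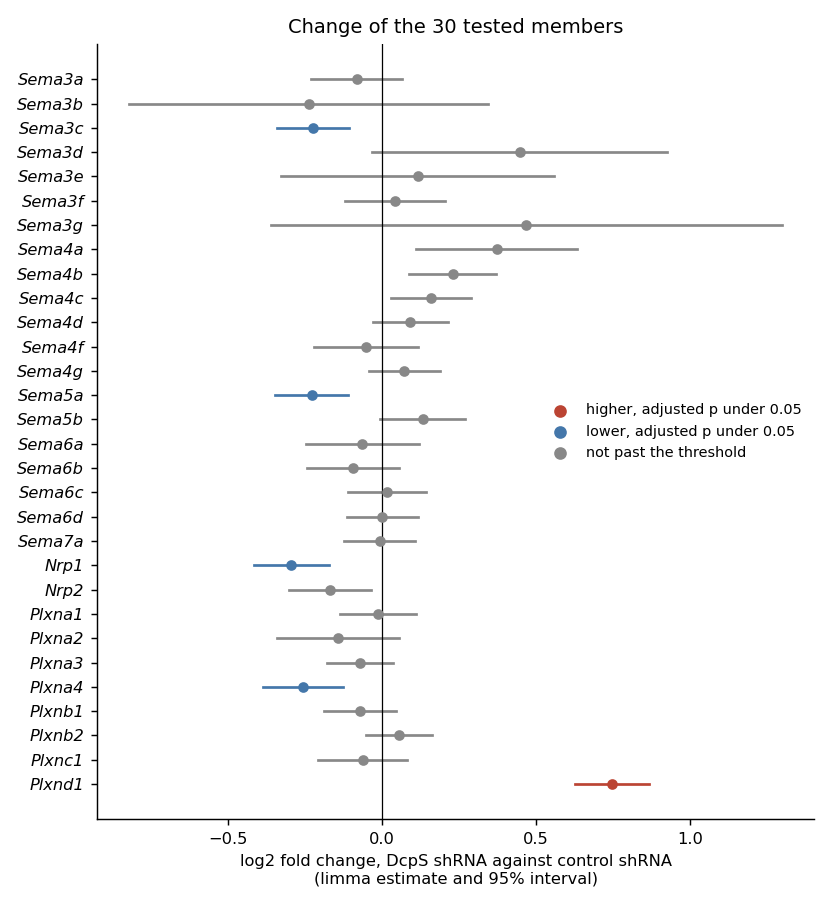
Log2 fold change of the 30 tested members (DcpS shRNA against control shRNA) with the limma 95% interval, in class order. Plxnd1 lies alone on the right at 0.75, the 4 lower members lie between -0.22 and -0.29, and the widest intervals belong to the low-count class 3 genes.

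Plxnd1, which encodes the receptor of Sema3e known from thalamocortical, striatal and vascular wiring, had the largest log2 fold change of the 30 tested members with all 4 libraries. Its control libraries read 1244 and 1309, and its DcpS shRNA libraries 2153 and 2130. Both treated libraries stood well above both controls, and replicates of a group lay close together. Its mean rose from 1276 ± 45.8 to 2142 ± 16.5 (SD, n = 2), a gain of 67.8% (log2 fold change 0.75, SE 0.06; limma adjusted p 9.01e-07). It was called under all 13 alternative settings, with log2 values from 0.71 to 0.78. The gene lies on chromosome 6, 115954811 to 115995005 (minus strand, GRCm38), and no other annotated gene overlaps it. Plexin D1 also marks vessels, so the 8 endothelial markers stand beside it. Pecam1 read 5.70 and 12.3 in the controls, against 20.0 and 14.5 with DcpS shRNA (not called, limma adjusted p 0.263). Cdh5 read 4.75 and 11.3 against 1.82 and 10.1 (not called, limma adjusted p 0.710). Kdr, at 55.9 to 109, was lower. Cldn5, Tek, Tie1, Flt1 and Emcn, at 15.4 or less in every library, did not pass the read filter. Plxnd1 was at 1244 or more in every library. The part of endothelial cells in its rise was not tested. Among plexins, Plxnd1 made up 4.72% and 4.88% of the summed RPKM of the control libraries, against 7.86% and 8.57% of the treated ones.

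Both neuropilins, the co-receptors of class 3 semaphorins and of VEGF, read lower with DcpS shRNA, and the test called Nrp1. Nrp1 (chromosome 8, 128358604 to 128503363, plus strand) had control values of 2530 and 2558 and treated values of 2170 and 1981. The groups did not overlap, and the treated libraries differed from each other more than the controls did. Its mean went from 2544 ± 19.4 to 2075 ± 133 (SD, n = 2) and fell by 18.5% (log2 fold change -0.29, SE 0.06; limma adjusted p 0.00485). Nrp2, the preferred co-receptor of Sema3f, read 1733 and 1765 against 1650 and 1466, with a log2 fold change of -0.17 (SE 0.06) that missed the threshold (limma adjusted p 0.142). Its value rested on DcpS shRNA 2, being -0.25 without DcpS shRNA 1 and -0.084 without DcpS shRNA 2. The log2 fold change of Nrp1 was -0.36 without DcpS shRNA 1 and -0.23 without DcpS shRNA 2. A fit with 1 library left out has 1 library in a group. Calls and p-values of such fits, here and below, therefore hold no spread within that group. Nrp1 took 63.9% and 63.7% of the summed neuropilin RPKM in the control libraries, against 61.4% and 62.1% in the treated ones, so the balance of the pair moved little.

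A-type plexins transduce class 3, 5 and 6 semaphorins. Of the 4, Plxna4 fell: its controls read 6053 and 6069 and its treated libraries 5444 and 4730. Both treated libraries were below the controls, DcpS shRNA 2 the further. Its mean fell by 16.3% (log2 fold change -0.26, SE 0.06; limma adjusted p 0.0195), and the call ended without control 2 (limma adjusted p 0.0581). The size of the fall depended on DcpS shRNA 2, the log2 fold change being -0.15 without it and -0.36 without DcpS shRNA 1. Plxna4 (chromosome 6, 32144268 to 32588192, minus strand) has antisense genes within it, which read at most 7.60 in any library.

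The other A-type plexins did not pass. Plxna2 read 15340 and 16141 against 15852 and 12809, groups that overlapped because DcpS shRNA 1 sat within the control range (log2 fold change -0.14; 95% interval -0.34 to 0.06). Its value rested on DcpS shRNA 2, being -0.30 without DcpS shRNA 1 and 0.01 without DcpS shRNA 2. Plxna1 (-0.01; 95% interval -0.14 to 0.11) and Plxna3 (-0.07; -0.18 to 0.04) had narrow intervals around 0. Plxna1 shares 970 exon bases with the antisense gene Gm26811 (15.4 to 25.7 counts). Plxnb1 shares 257 with Gm7628 (60.5 to 79.3 counts) and Sema4c 334 with D430040D24Rik (88.1 to 107 counts), both on the opposite strand. Without strand, reads of such a pair cannot be told apart. The B-type plexins, which act on Ras proteins and through RhoA, also did not pass: Plxnb1 was at -0.07 (95% interval -0.19 to 0.04) and Plxnb2, at 5004 and 4891 against 5249 and 5033, at 0.06 (-0.05 to 0.16). Plxnc1, receptor of Sema7a, was at -0.06 (-0.21 to 0.08).

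**Figure D3:**
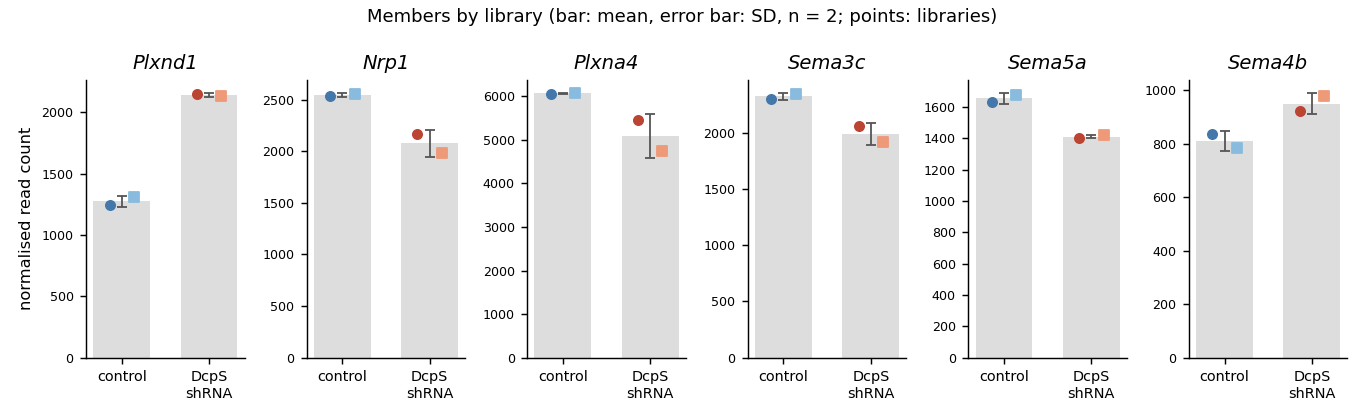
Normalised read counts of the 5 members that changed and of Sema4b, the member nearest the threshold (bars: group mean; error bars: SD, n = 2; points: libraries; each panel has its own axis from 0). Plxnd1 goes from 1276 to 2142, whereas the 4 lower genes fall by 14.4% to 18.5%.

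Among the secreted class 3 ligands, Sema3c fell. Sema3c (chromosome 5, 17574281 to 17730268, plus strand), an attractive cue for callosal axons, had control values of 2298 and 2342 and treated values of 2055 and 1919. The groups did not overlap. It fell by 14.4% (log2 fold change -0.22, SE 0.06; limma adjusted p 0.0246), and the call ended without control 1 (0.0823), without control 2 (0.173) and with DESeq2 (0.100, all adjusted). Sema3a read 751 and 794 against 753 and 706, which overlapped (-0.08; 95% interval -0.23 to 0.07). Sema3f, a repellent acting through Nrp2, read 508 and 504 against 514 and 527 (0.04; -0.12 to 0.20). Sema3b, Sema3d, Sema3e and Sema3g, at 10.3 to 65.4 normalised counts, had wide intervals and none passed. Those of Sema3d (0.45; -0.03 to 0.92) and Sema3g (0.47; -0.36 to 1.3) include a rise as large as that of Plxnd1, and those of Sema3b (-0.24; -0.82 to 0.34) and Sema3e do not. Sema3c made up 65.2% and 65.4% of the summed class 3 RPKM in the control libraries, against 61.9% and 60.8% in the treated ones.

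Class 4 semaphorins, membrane ligands of B-type plexins, had 5 of 6 members with both treated libraries above both controls, where 48.4% of all tested genes did not overlap in either direction, and limma called 0 of the 6. At an unadjusted p under 0.05 there were 3, and edgeR called 0 and DESeq2 0. Sema4b came nearest, at 835 and 785 against 921 and 978 (log2 fold change 0.23, SE 0.07; limma adjusted p 0.0549). Sema4a, which also binds plexin D1, read 153 and 171 against 199 and 221 (0.37, SE 0.12; limma adjusted p 0.0984). Without DcpS shRNA 1 both of these were called higher, and neither was called with any other library left out. Sema4c, ligand of plexin B2, read 2044 and 1830 against 2205 and 2112 (0.16, SE 0.06; limma adjusted p 0.162) and was called without DcpS shRNA 2 (0.19; limma adjusted p 0.0394) but stood at 0.078 without control 2 (adjusted p 0.794). Sema4g, the other abundant member of the class, read 2127 and 2191 against 2315 and 2226 (0.07; 95% interval -0.04 to 0.19), Sema4d was at 0.09 and Sema4f at -0.05. The class had a median log2 fold change of 0.13, with summed levels of 6929 and 6766 for the control libraries, against 7502 and 7370 for the treated ones.

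In classes 5 to 7, Sema5a fell. It encodes a transmembrane ligand with thrombospondin repeats that binds proteoglycans and A-type plexins, and read 1630 and 1679 in the controls against 1403 and 1419 with DcpS shRNA. The groups were well apart relative to their spread, and the mean fell by 14.7% (log2 fold change -0.23, SE 0.06; limma adjusted p 0.0224). Its call ended without control 1 (0.0718), without control 2 (0.208) and with DESeq2 (0.127, all adjusted). Its close relative Sema5b stood on the other side of 0, at 1591 and 1543 against 1837 and 1605 (0.13; 95% interval -0.01 to 0.27), and was called higher without DcpS shRNA 2 (0.23; limma adjusted p 0.0104) but stood at 0.034 without DcpS shRNA 1 (adjusted p 0.826). The Sema5a gene lies on chromosome 15, 32244810 to 32696341 (plus strand).

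The most abundant ligands of these classes stayed within narrow intervals around 0. Sema6d, a cue for Plxna1 and Plxna4, read 4325 and 3995 against 4198 and 4121 (log2 fold change 0.0008; 95% interval -0.11 to 0.12). Sema7a read 2270 and 2183 against 2165 and 2265 (-0.01; -0.12 to 0.11). Both sets of libraries overlapped. Sema6a, Sema6b and Sema6c ran from -0.09 to 0.02. Of the 4 Sema6 genes limma called 0; at an unadjusted p under 0.05 there were 0, and edgeR called 0 and DESeq2 0.

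**Figure D4:**
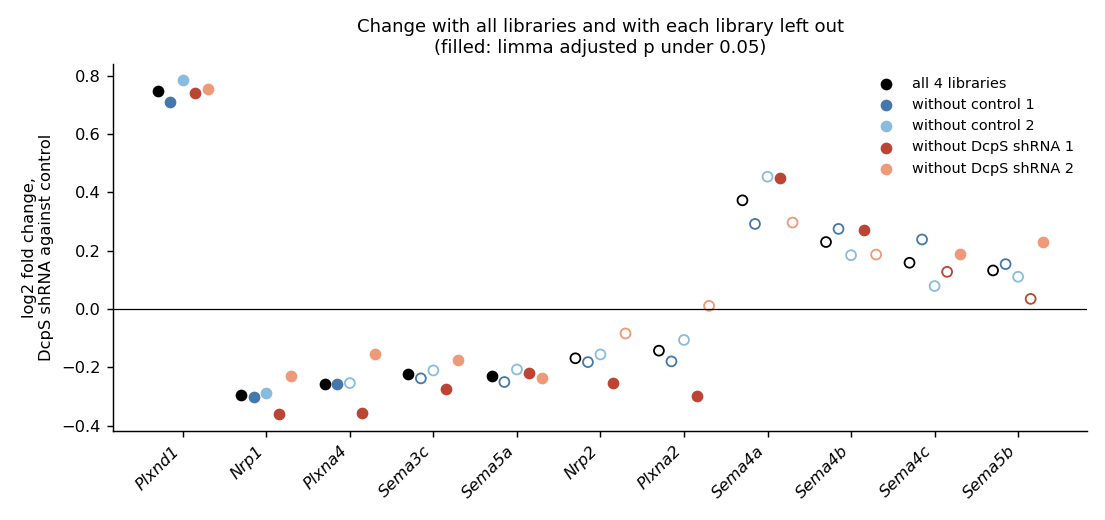
Log2 fold change of 11 members with all 4 libraries (black) and with each library left out (colours); filled points passed limma's adjusted p of 0.05. Plxnd1 and Nrp1 are filled at every setting shown, Sema3c and Sema5a become open without either control, Plxna4 without control 2, and Plxna2 ranges from -0.30 to 0.01.

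Setting ligands beside receptors, 34 known pairs were listed, 33 of them with both partners tested. The called genes among them were the receptors Plxnd1, Nrp1 and Plxna4 and the ligands Sema3c and Sema5a. Each counts in every pair it belongs to, so the pairs are not independent. Both partners changed in 2 pairs, the ligand alone in 3, the receptor alone in 8 and neither in 20. In the first of the 2 pairs, Sema3c and its co-receptor Nrp1 both fell, by 0.22 and 0.29 on the log2 scale. The control libraries had Sema3c to Nrp1 ratios of RPKM of 1.24 and 1.26, the treated ones 1.3 and 1.33. In the second, Sema3c fell and Plxnd1 rose. For Sema3e and Plxnd1 the receptor rose while the ligand, at 51.3 and 45.1 against 55.4 and 49.2, had a log2 fold change of 0.12 (95% interval -0.33 to 0.56). The ratio of Plxnd1 to Sema3e was 30.8 and 36.9 for the control libraries, against 49.4 and 55.1 for the treated ones, with few Sema3e reads behind it. The RPKM ratio of Plxnd1 to Nrp1, which can share a receptor complex, went from 0.659 and 0.686 to 1.33 and 1.44, so that the lower-ranked of this pair in the controls was the higher-ranked with DcpS shRNA. For Sema3a and Nrp1 and for Sema6a and Plxna4, the receptor fell and the ligand did not pass.

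The other genes of semaphorin signalling were taken from a list by role. Of 61 genes, 60 were in the table and 57 tested; 2 were higher and 7 lower, where 2.14% and 3.65% of all tested genes were, and the median log2 fold change was -0.02. Co-receptors and alternative receptors held 5 of the lower calls, out of 12 tested. Itgb1, the integrin subunit through which Sema7a acts, read 3779 and 3931 against 2626 and 2659 (log2 fold change -0.54, SE 0.05; limma adjusted p 7e-06). Its partner subunit Itga1 read 170 and 195 against 83.6 and 68.2 (-1.26, SE 0.15). The adhesion molecules Chl1 and Nrcam, which join neuropilins in class 3 receptor complexes, also fell. Chl1 read 7875 and 8155 against 5737 and 5627 (-0.50, SE 0.05), with both treated libraries far below the controls, and Nrcam 4474 and 4768 against 3772 and 3706 (-0.30, SE 0.05; limma adjusted p 0.00204). Kdr, the VEGF receptor, fell from 84.6 and 108.7 to 58.1 and 55.9 (-0.74, SE 0.18). Kdr was no longer called without control 2 (limma adjusted p 0.251) or with DESeq2 (0.208).

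Furin, the protease that cleaves and activates class 3 semaphorins, had control values of 671 and 635 and treated values of 355 and 354 (log2 fold change -0.88, SE 0.08; limma adjusted p 5e-06). The 2 treated libraries were nearly equal and far below both controls. VEGF genes, the other neuropilin ligands, did not pass. Among cytoplasmic mediators 1 of 8 was lower: Mical2, an actin-oxidising enzyme of the family that acts below plexins, read 710 and 725 against 534 and 513 (-0.45, SE 0.07; limma adjusted p 0.00106). The collapsin response mediator genes Crmp1 and Dpysl2 to Dpysl5 ran from -0.09 to 0.14 and none passed. Among 19 plexin-bound GTPases and regulators, Rap1a and Mras, Ras-family proteins on which the plexin GAP domain can act, were higher. Rap1a read 936 and 939 against 1209 and 1187 (0.35, SE 0.06; limma adjusted p 0.00172) and Mras 1421 and 1402 against 1654 and 1704 (0.25, SE 0.06; limma adjusted p 0.0128). The call of Mras ended without control 1 (limma adjusted p 0.0542), without control 2 (0.102) and with DESeq2 (0.0736). Limma called 0 of the 12 kinase and cofilin-pathway genes, whose log2 fold changes ran from -0.62 to 0.12. At an unadjusted p under 0.05 there were 2, and edgeR called 0 and DESeq2 0.

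**Figure D5:**
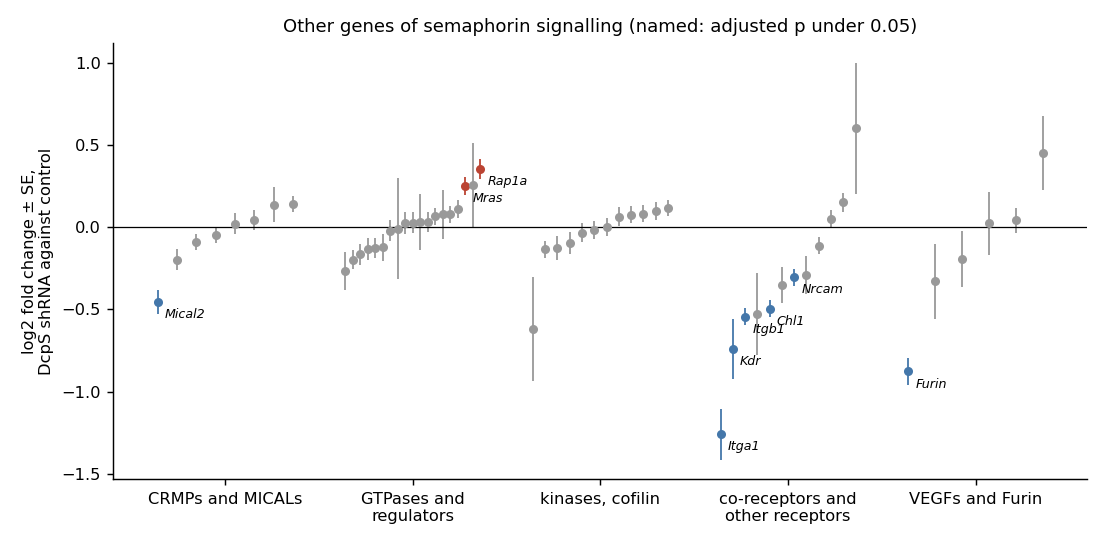
Log2 fold change with SE for the 57 tested signalling partners by role, sorted within each role; red and blue mark limma calls. The blue points gather among co-receptors and other receptors, with Furin at -0.88 and Mical2 at -0.45 in other groups.

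Because an shRNA can lower transcripts that match its seed, the annotated 3′ UTRs (GENCODE M21) were read for the 7-base words ACGTGCA and CACGTGC on the transcript strand, which overlap each other by 6 bases. The words come from an earlier analysis of these data, and the labels do not give the hairpin's sequence, so they are not independent evidence. A word was found in 9.48% of 13724 tested genes that could be scanned, in 34.7% of called lower genes and in 6.79% of called higher genes. None of the 5 members that changed has one, and 2 of the 31 members do, Sema3b and Sema4f, neither of which was called. Among the members that changed, the longest 3′ UTR scanned was 549 bases for Nrp1 and 929 for Plxnd1. It was 2512 for Sema3c, 6221 for Plxna4 and 6926 for Sema5a. A short 3′ UTR leaves less room for a word. A word was present in 11 of the 57 tested partners (19.3%). Of the 7 lower partners 5 have one: Mical2, Nrcam, Chl1, Itga1 and Furin, but not Itgb1 or Kdr. Sites are shown for the targeted transcript, the 2 members and 2 of those partners, with the word in capitals and 10 bases on each side. The part of such matches in the partners' fall was not tested.
Dcps: ctatcacctgCACGTGCAtttcacagct
Sema3b: tcaagagagcCACGTGCctctctctcc
Sema4f: ctaggctctgCACGTGCttgaagacac
Chl1: gcagactctgACGTGCAatgctgacta
Furin: aagtgattaaACGTGCAgactatgcaa

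The lower members were long genes. Nrp1, Sema3c, Plxna4 and Sema5a span 144.8, 156.0, 443.9 and 451.5 kb, while Plxnd1 spans 40.2 kb. Of 14 tested members spanning at least 100 kb, 4 were called lower and 0 higher, with a median log2 fold change of -0.07, and of 16 shorter members 0 were lower and 1 was higher, with a median of 0.03. Over all tested genes with a span, 9.21% of the 2237 at or above 100 kb and 2.92% of the 15468 shorter genes were called lower, so for lower calls the members' split runs the same way as that of all genes. The only higher call among members was Plxnd1, and 1 gene cannot show a split. Over all genes 2.91% of the long and 2.04% of the shorter ones were called higher. Long members were not uniformly lower: Sema6d, the longest at 577.8 kb, and Sema3a, at 477.2 kb, did not pass. Markers of several other cell types were lower beside Nrp1, Plxna4, Sema3c, Sema5a and Itgb1: 6 of 6 fibroblast markers, 3 of 5 tested astrocyte markers (Gfap, Aqp4 and Gja1; summed level 3771 to 3952 in controls and 3144 to 3340 with DcpS shRNA), 2 of 6 markers of pericytes and smooth muscle (Acta2 and Pdgfrb; 707 to 736 and 427 to 460) and 1 of 3 tested choroid plexus markers (Ttr; 5165 to 5352 and 3853 to 4208). Of 8 radial glia and progenitor markers 1 was higher and 0 lower (27887 to 29764 and 30179 to 30738). Among 5 tested oligodendrocyte-lineage markers 1 was lower (Pdgfra) and 1 higher (Mbp). Among 8 interneuron markers 1 was higher (Npy) and 0 lower. No tested marker of Cajal-Retzius cells, microglia and macrophages, or red blood cells was called. Gfap, Aqp4, Gja1, Acta2, Pdgfrb and Ttr were above 0 in every library, and Kl, of the choroid plexus list, was at 0 in at least 1. The part of gene length and of these cell types in the members' changes was not tested.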

How the data were processed

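Total RNA of 4 primary neuron cultures was sequenced. Per the submitters' processing notes, HISAT2 2.2.0, SAMtools 1.3.1, Picard, featureCounts and DESeq2 were used with GRCm38. Not given in the sources used here were the step each served, the gene annotation and whether counting was stranded. Values in the deposited table are a signal, reads divided by a size factor for each library by the authors: dividing each column by its smallest value above 0 gave whole reads for 100% of values (tolerance 0.001). The factors matched median-of-ratios size factors recomputed from those reads, a scaling that assumes that most genes do not change. The limit of 3 reads that a count of 0 allows covers counting error only.

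The main test was limma 3.58.1 on log2(normalised read count + 1), using its trended, robust empirical Bayes option with no covariate besides group, and Benjamini-Hochberg adjustment over the 18110 genes past edgeR 4.0.16's filterByExpr (minimum count 10). Fold changes on this scale understate changes of low genes. An exact permutation test of 2 against 2 cannot go below p 0.333. Run on the recovered reads as alternatives, edgeR's quasi-likelihood test called 1094 genes and DESeq2 1.42.0 called 451. Scripts were tested on simulated data. Named genes were members past adjusted p 0.05, the neuropilins, the leading members of each class by normalised read count or RPKM, and called partners; other members are named by value or count. Members, lists and settings were chosen with earlier results of these data known. RPKM used union exon length (GENCODE M21).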

Additional observations from a re-analysis of the deposited data

How the results depend on the processing

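Of the members that changed, Plxnd1 and Nrp1 were called under all 13 alternatives, Plxna4 under 12, and Sema3c and Sema5a under 10 each. The number of members called was 5 under both other pseudocounts, without a read filter, under TMM or library-total scaling and with edgeR, 3 with DESeq2, and 2 to 9 when 1 library was left out. Genes called over the whole table went from 1048 to 451 with DESeq2 and to 747 to 1745 with 1 library left out, and the partners called, 9 in all 4 libraries, numbered 7 to 17 with 1 library left out. The cause was not tested. Uncalled values near 0 changed sign: Sema6d was -0.0037 with TMM, -0.00041 with edgeR, -0.00038 with DESeq2, and -0.056 to 0.058 with 1 library left out, and Sema7a -0.040 to 0.025 with 1 left out. With 1 left out, Plxna2 ran from -0.30 to 0.011, Plxna1 from -0.079 to 0.051, Sema6a from -0.16 to 0.027 and Sema6c from -0.040 to 0.071. Sema3g, a low-count gene never called, reached 0.85 with 1 left out, above the 0.71 to 0.78 of Plxnd1.

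The titles number a set, 1 or 2, in both groups and do not say what a set shares. Same-numbered cultures deviated together only weakly (correlation 0.0429 across 18110 genes). At 2 cultures a group, this correlation cannot tell whether a set shared a preparation. With the replicate block limma called 1626 genes and edgeR 1668, of which 7 members by either tool, adding Sema4a and Sema4b, and 12 partners. With 2 cultures a group and 2 residual degrees of freedom, the spread rests on pooling across genes, and members at 65.4 normalised counts or fewer had intervals too wide to show falls as small as those of the abundant members.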
